A study of Homo sapiens with 8 samples.

Results

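WNT5A and WNT5B are secreted WNT ligands, and the 10 genes described here are this pair, the ligand WNT7B, the receptors ROR1 and ROR2, the Frizzled receptors FZD2, FZD5 and FZD6, the secreted antagonist DKK1 and the feedback gene AXIN2. They were chosen by name, with earlier results of these data known, from 60291 gene identifiers with counts. All 10 were among the 17811 genes with enough reads to be tested. The cells were A549, an established human lung adenocarcinoma line with a loss-of-function mutation in KEAP1, whose product keeps the NFE2L2 protein NRF2 low, so that NRF2 is constitutively high in this line before silencing. For each transfection 250000 cells received 5 nmol of an siRNA duplex, a short RNA that directs the degradation of matching mRNA, and RNA was prepared after 48 h. The NFE2L2 siRNA group consisted of 3 duplexes, each transfected 1 time, and the control siRNA group of 4 transfections, in which 2 control duplexes were each used 2 times. A single mock transfection received the lipid reagent without siRNA. All libraries came from 1 cell line, and different duplexes, not different clones or donors, make up the replicates of the NFE2L2 siRNA group.

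WNT proteins leave the cell with a lipid attached and bind Frizzled receptors on the same or a neighbouring cell. Ligands such as WNT7B can engage LRP5 or LRP6 together with a Frizzled, which protects beta-catenin from degradation and raises the transcription of TCF/LEF target genes, AXIN2 among them. WNT5A and WNT5B act mostly without beta-catenin, through Frizzled receptors and the tyrosine kinase-like receptors ROR1 and ROR2, on cell shape, polarity and movement. In the lung WNT5A is known for its part in the shaping of the distal airways, and it has been studied in tumour invasion. NRF2 is a transcription factor of the oxidative stress response.

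The upstream sequences of the ligand pair are shown because WNT5A was the member that passed the threshold and WNT5B, its closest relative, the other ligand without overlap between the groups. In RefSeq promoter windows (250 bases upstream to 50 bases downstream of a transcription start, GRCh38.p14) 6 of the 10 genes had an entry, with 8 windows. No entry was used for WNT7B, FZD2, FZD6 and AXIN2. The 250 upstream bases were located by exact match in GRCh37, the build of the counts, and are given 5′ to 3′ on the strand of the gene for the start whose upstream bases overlap no annotated exon. Both lie within introns of longer transcripts of the same gene. The WNT5A stretch is chr3:55515427-55515676 on the minus strand, with a GC content of 64.4%, and the WNT5B stretch is chr12:1738147-1738396 on the plus strand, with 50.8%.
WNT5A: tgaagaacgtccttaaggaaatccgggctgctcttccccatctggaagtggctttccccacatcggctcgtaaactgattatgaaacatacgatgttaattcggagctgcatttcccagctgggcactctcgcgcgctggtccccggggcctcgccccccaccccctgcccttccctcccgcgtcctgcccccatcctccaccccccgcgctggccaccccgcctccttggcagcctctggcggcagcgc
WNT5B: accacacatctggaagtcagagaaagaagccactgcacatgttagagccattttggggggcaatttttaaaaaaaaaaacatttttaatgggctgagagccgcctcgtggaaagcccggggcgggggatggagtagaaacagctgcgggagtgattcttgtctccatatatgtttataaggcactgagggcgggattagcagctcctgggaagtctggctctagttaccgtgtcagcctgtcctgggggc
No letter is in capitals, since neither motif searched on both strands occurs in them. The core of the antioxidant response element bound by NRF2, TGACNNNGC, was found in 13.3% of all 35116 RefSeq windows of this length, and in 0 of the 8 windows of these genes. The TCF core CTTTGAT was found in 2.62% of all windows and likewise in 0 of the 8. Neither motif can hold the other within its letters.

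Between 35525141 and 41645410 reads per compared library were counted on genes, and 39498992 in the mock library. NFE2L2 itself had 32.9, 52.0 and 29.7 CPM (counts per 1000000 counted on genes, scaled by TMM) with duplexes 1, 2 and 3, against 106.7 to 117.1 CPM in the control siRNA libraries, a log2 fold change of −1.55 (SE 0.178, edgeR adjusted p = 0.000994). Duplex 2 therefore left the highest NFE2L2 level of the 3. Log2 fold changes are NFE2L2 siRNA over control siRNA, and adjusted p-values are from edgeR's quasi-likelihood test, two-sided, over all 17811 genes, with a threshold of 0.01. The summed level of 5 epithelial markers was 7334 to 11690 CPM after silencing, beside 7632 to 8380 CPM in the controls and 9625 CPM in the mock library. Of 8 markers of other cell types, PTPRC, CD3E, CD68 and DCN had under 10 reads in each of the 8 libraries. The summed level of the 8 was 23.8 to 30.3 CPM after silencing, 12.6 to 14.2 CPM in the controls and 11.9 CPM in the mock library. CDH5 and COL1A1 were the list members that passed, at 0.677 against 0.17 CPM and 12.1 against 4.29 CPM in the means of the groups (adjusted p = 0.0082 and 0.000493). CDH5 had 18, 24 and 39 reads after silencing and 4 to 8 in the controls, and so was tested only through the libraries in which it was high. Since these markers were higher in the same libraries as WNT5A, their part in the results below was not tested. All libraries came from the A549 line. In bulk RNA, a change in the number of cells of a type and a change in RNA per cell cannot be told apart.

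The 10 genes spanned a wide range of levels. In the control siRNA libraries, as CPM divided by the exon length in kilobases (RPKM), the antagonist DKK1 was the most abundant at 74.7 ± 2.28 RPKM (SD, n = 4), higher than 97.45% of the 17304 tested genes with a known length. The 3 Frizzled receptors followed, with FZD6 at 16.6 ± 0.979, FZD2 at 8.15 ± 0.955 and FZD5 at 7.16 ± 0.703 RPKM. ROR1 (4.03 ± 0.392), AXIN2 (3.99 ± 0.663) and WNT7B (3.48 ± 0.410 RPKM) lay close to each other. The WNT5 ligands were lower, WNT5A at 1.07 ± 0.161 and WNT5B at 0.259 ± 0.0199 RPKM, and ROR2 was lowest at 0.135 ± 0.0238 RPKM, above only 10.54% of tested genes. In this order the control ranges of FZD2 and FZD5, of ROR1 and AXIN2, and of AXIN2 and WNT7B overlapped, while the other neighbours were separate. Thus ROR1 was the main ROR transcript of these cells, with 96.8% of the summed per-kilobase level of ROR1 and ROR2 in the control siRNA libraries and 96.1% with NFE2L2 siRNA.

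With NFE2L2 silenced, the WNT5A transcript was higher in all 3 libraries, and it was the member that passed the threshold. WNT5B and FZD6 were also higher in every NFE2L2 siRNA library than in any control siRNA library, but missed the threshold. The remaining 7 genes overlapped between the groups, and 0 members passed in the direction of lower levels. Thus 1 of the 10 genes passed, upward, where 1.39% of all tested genes passed upward, 1.36% downward and 2.76% in either direction. Groups did not overlap for 3 of the 10, all higher, where 11.9% of all tested genes were higher without overlap and 11.4% lower. Of the 10 log2 fold changes 9 were positive, with a median of 0.37, beside 51.3% positive and a median of 0.01 over all tested genes. At an unadjusted edgeR p of 0.05, 5 of the 10 passed, as did 4457 of all 17811 genes tested, so that passing this bound was common. The plot of the members by library shows these values.

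**Figure D1:**
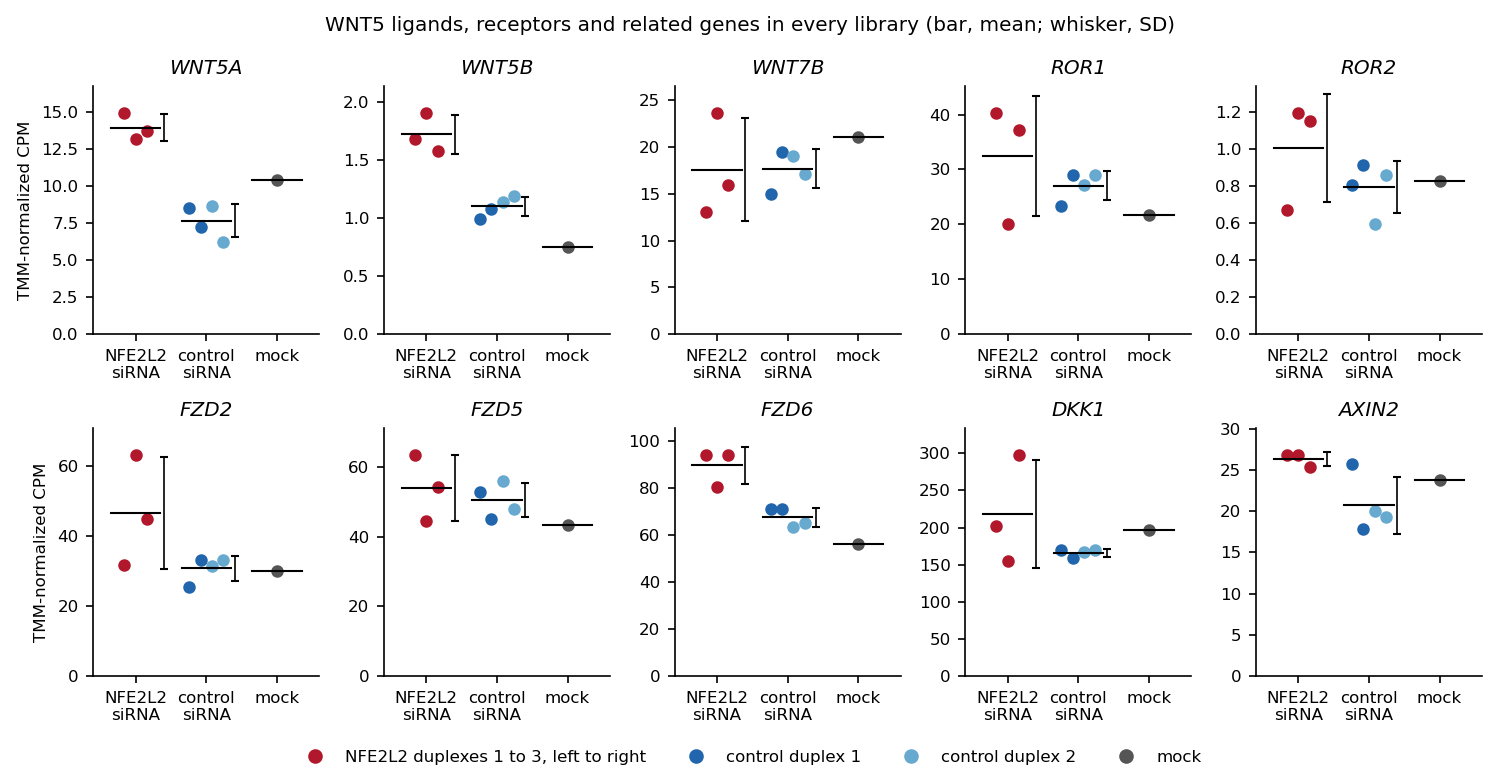
TMM-normalized CPM of each of the 10 genes (vertical axes from 0, a scale for each gene) in every library, with NFE2L2 duplexes 1 to 3 from left to right in red, control duplexes in dark and light blue, and the mock library in grey. Horizontal bars are means and whiskers SD (n = 3 and n = 4). WNT5A, WNT5B and FZD6 show no overlap between the NFE2L2 siRNA and control siRNA points, while ROR1, FZD2, DKK1 and WNT7B show wide spread among the NFE2L2 duplexes.

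WNT5A (ENSG00000114251.9) spans positions 55499743 to 55524567 of chromosome 3 (GRCh37, minus strand; the build of all positions given for genes). It had 535, 517 and 584 reads with NFE2L2 duplexes 1, 2 and 3. The control siRNA libraries had 317 and 270 reads with control duplex 1 and 321 and 225 with control duplex 2. The mock library had 415 reads, between the groups. Even the lowest NFE2L2 siRNA count (517 reads, exact 95% Poisson interval 473.4 to 563.5, counting error only) was clear of the interval of the highest control count (321 reads, 286.8 to 358.1). In normalized terms the level was 13.9 ± 0.924 CPM (SD, n = 3) against 7.67 ± 1.15 CPM (SD, n = 4), a 1.82-fold difference and a log2 fold change of 0.86 (SE 0.137, adjusted p = 0.00555). The 3 duplexes gave similar levels, at 1.95, 1.72 and 1.79 times the control mean. By an exact two-sided permutation test over the 35 divisions of the 7 libraries, with the smaller tail doubled, p was 0.0571. That is the smallest value this form of the test can give. The divisions treat the 4 control siRNA libraries as separate units, although they came from 2 duplexes.

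The log2 fold change of WNT5A stayed between 0.76 and 0.92 under 18 alternatives, but its adjusted p did not stay under 0.01. The call held in 9 of the 18, among them DESeq2 (adjusted p = 1.301e-06), limma-voom (0.00574) and the addition of the mock library to the controls (0.0088). It was lost against control duplex 1 alone (adjusted p = 0.0474), against control duplex 2 alone (0.0667) and with the control libraries summed per duplex (0.0526). Without NFE2L2 duplex 2 it held (adjusted p = 0.00623), and without any 1 of the other 6 libraries the adjusted p lay between 0.0117 and 0.0291. Those fits rest on fewer libraries, and 163 to 915 of all genes passed in them, beside 491 with all 7 libraries. The mock library, at 10.4 CPM, lay above the control siRNA range of 6.23 to 8.67 CPM, and the mean with NFE2L2 siRNA was 1.34 times the mock level, beside 1.82 times the control level.

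**Figure D2:**
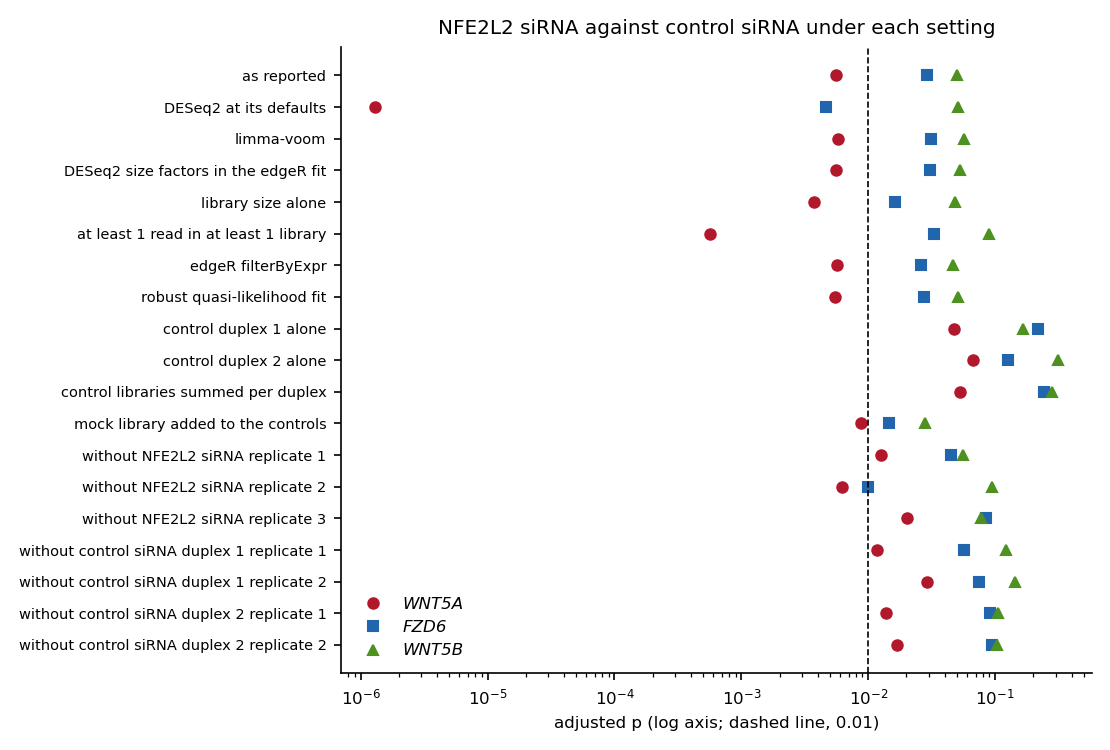
Adjusted p (horizontal log axis) of WNT5A (circles), FZD6 (squares) and WNT5B (triangles) for NFE2L2 siRNA against control siRNA as reported and under each of 18 alternative settings (rows). The dashed line marks 0.01, and the points of WNT5A lie on both sides of it, from 1.301e-06 with DESeq2 to 0.0667 against control duplex 2 alone.

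WNT5B (ENSG00000111186.8, chromosome 12 from 1639057 to 1756378, plus strand) was a low transcript. It had 60, 75 and 67 reads with NFE2L2 duplexes 1, 2 and 3 and 37, 40, 42 and 43 reads in the control siRNA libraries. All 3 NFE2L2 siRNA counts were higher than all 4 control counts, and the mock library was lowest of all 8 with 30 reads. The exact 95% Poisson intervals of the 60 reads (45.8 to 77.2) and the 43 reads (31.1 to 57.9) overlapped, so that at this depth the nearest libraries of the groups could not be told apart. The level was 1.72 ± 0.170 CPM (SD, n = 3) against 1.10 ± 0.0844 CPM (SD, n = 4), with a log2 fold change of 0.64 (SE 0.173, adjusted p = 0.0501; exact permutation p = 0.0571). Over the alternatives the adjusted p ranged from 0.028 to 0.312, and the threshold was met in 0 of 18.

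WNT7B (ENSG00000188064.5, chromosome 22 from 46316246 to 46373042, minus strand) had the highest per-kilobase level of the 3 ligands and no common direction. Its level was 13.1, 23.7 and 15.9 CPM with NFE2L2 duplexes 1, 2 and 3. The control siRNA libraries lay between 15.0 and 19.5 CPM and the mock library at 21.1 CPM. Duplex 2 was thus above all controls and duplex 1 below all of them, and the log2 fold change was −0.01 (SE 0.192, adjusted p = 0.985).

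As a share of the summed per-kilobase level of 19 WNT genes, WNT5A made up 10.1 ± 1.45% (SD, n = 4) with control siRNA and 15.7 ± 2.93% (SD, n = 3) with NFE2L2 siRNA, and 12.2% in the mock library. WNT7B remained the most abundant WNT transcript by mean share, with 32.7 ± 3.86% and 27.0 ± 4.66%, followed by WNT3 with 23.8 ± 1.82% and 25.8 ± 1.05%. WNT5B made up 2.44 ± 0.260% with control siRNA and 3.23 ± 0.205% with NFE2L2 siRNA. These shares are descriptions without a test, chosen after the values were seen, and a share can move because another member of the family moves.

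The ROR receptors, which carry WNT5 signals, differed more among the NFE2L2 duplexes than between the groups. ROR1 (ENSG00000185483.7, chromosome 1 from 64239688 to 64647181, plus strand) was at 40.37, 20.02 and 37.18 CPM with NFE2L2 duplexes 1, 2 and 3. The control siRNA libraries were at 23.3, 28.9, 27.1 and 28.9 CPM and the mock library at 21.8 CPM. Duplexes 1 and 3 thus lay above every control, and duplex 2 below every control. The log2 fold change was 0.26 (SE 0.211, adjusted p = 0.479), and it was 0.08 without NFE2L2 duplex 1, 0.50 without duplex 2 and 0.16 without duplex 3 (adjusted p = 0.843, 0.0225 and 0.758). ROR2 (ENSG00000169071.10, chromosome 9 from 94325373 to 94712510, minus strand) was covered by 24, 47 and 49 reads in the NFE2L2 siRNA libraries, against 22 to 34 in the controls. Its duplexes 2 and 3 were above the controls and duplex 1 within their range, with a log2 fold change of 0.35 (SE 0.262, adjusted p = 0.446).

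Among FZD2, FZD5 and FZD6, only FZD6 showed no overlap between the groups. FZD6 (ENSG00000164930.7, chromosome 8 from 104310661 to 104345094, plus strand), a Frizzled known for tissue polarity, was at 94.1, 80.5 and 93.8 CPM with NFE2L2 duplexes 1, 2 and 3. The control siRNA libraries were at 70.8 and 70.9 CPM with control duplex 1 and 63.2 and 64.9 CPM with control duplex 2, and the mock library was lowest at 56.0 CPM. All NFE2L2 duplexes were higher than all other libraries, by 1.19 to 1.40 times the control mean. The means were 89.5 ± 7.78 CPM (SD, n = 3) and 67.5 ± 3.98 CPM (SD, n = 4), with a log2 fold change of 0.41 (SE 0.0944, adjusted p = 0.0289; exact permutation p = 0.0571). FZD6 passed 0.01 in 2 of 18 alternatives, with DESeq2 (adjusted p = 0.00464) and without NFE2L2 duplex 2 (0.00991), and its adjusted p ranged up to 0.244.

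FZD2 (ENSG00000180340.5, chromosome 17 from 42634852 to 42638630, plus strand), a receptor that WNT5A can bind, was at 31.7, 63.4 and 44.8 CPM with NFE2L2 duplexes 1, 2 and 3 and at 25.5 to 33.2 CPM in the control siRNA libraries. Duplexes 2 and 3 were above all controls and duplex 1 was within their range. The log2 fold change was 0.60 (SE 0.203, adjusted p = 0.102), and it was 0.81 without duplex 1 and 0.30 without duplex 2 (adjusted p = 0.0162 and 0.25). FZD5 (ENSG00000163251.3, chromosome 2 from 208627322 to 208634630, minus strand), another WNT5A receptor, was at 63.5, 44.6 and 54.1 CPM against 44.9 to 56.0 CPM. Its duplex 1 was above and duplex 2 below the control range, and the log2 fold change was 0.10 (SE 0.132, adjusted p = 0.686).

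Over the 10 Frizzled genes the summed per-kilobase level was 72.4 ± 5.13 RPKM (SD, n = 3) with NFE2L2 siRNA, 57.5 ± 4.24 RPKM (SD, n = 4) with control siRNA and 49.6 RPKM in the mock library. FZD6 made up the largest mean share in both groups, 30.6 ± 4.57% and 28.9 ± 0.969%. FZD2 accounted for 16.83 ± 4.597% with NFE2L2 siRNA and 14.3 ± 2.46% with control siRNA. FZD5 accounted for 10.7 ± 2.63% and 12.5 ± 1.57%. No test was made on these shares.

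**Figure D3:**
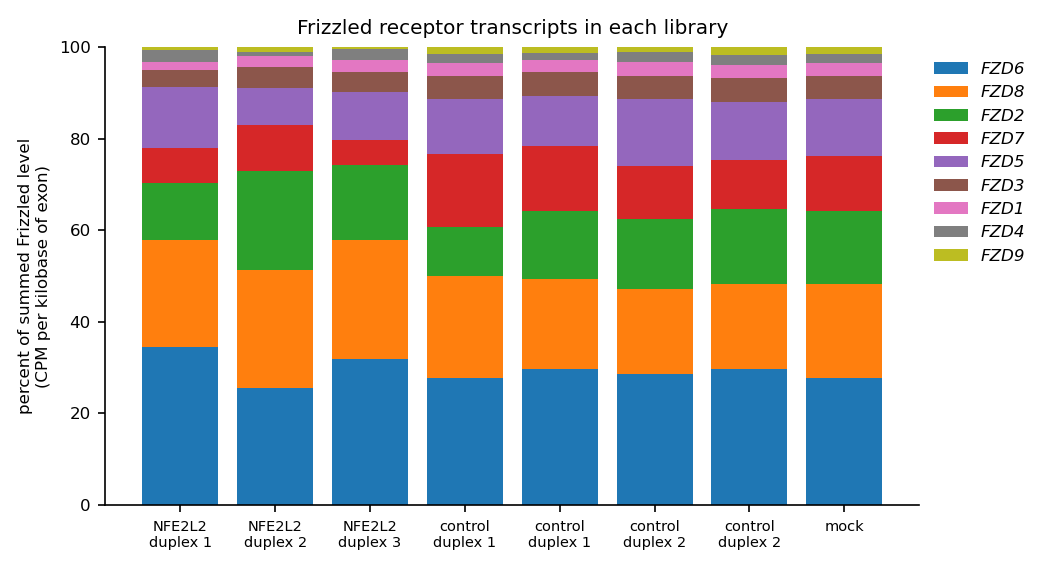
Percent of the summed Frizzled level (CPM per kilobase of exon, vertical axis) taken by each Frizzled gene in each of the 8 libraries (bars). FZD10 had no reads and is not drawn. FZD6 (lowest segment) made up 25.6% to 34.4% after silencing, beside 27.7% to 29.7% in the controls, and FZD2 reached 21.6% with NFE2L2 duplex 2.

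DKK1 (ENSG00000107984.5, chromosome 10 from 54074041 to 54077802, plus strand) binds LRP5 and LRP6 and blocks beta-catenin signalling by WNT ligands. Its level was 202.4, 154.9 and 298.3 CPM with NFE2L2 duplexes 1, 2 and 3. The control siRNA libraries were tightly grouped between 158.6 and 169.4 CPM, and the mock library was at 197.2 CPM. Duplexes 1 and 3 were above and duplex 2 below every control, with a log2 fold change of 0.40 (SE 0.181, adjusted p = 0.208). Without duplex 3 the log2 fold change was 0.11 and without duplex 2 it was 0.58 (adjusted p = 0.646 and 0.0265).

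AXIN2 (ENSG00000168646.8, chromosome 17 from 63524681 to 63557766, minus strand) encodes a scaffold of the complex that degrades beta-catenin, and is itself a common readout of beta-catenin activity. The NFE2L2 siRNA libraries were close together at 26.8, 26.9 and 25.3 CPM. The control siRNA libraries were at 25.7 and 17.9 CPM with control duplex 1 and 20.1 and 19.3 CPM with control duplex 2, and the mock library was at 23.8 CPM. A single control library thus reached the NFE2L2 siRNA range, while the other 3 lay below it. The log2 fold change was 0.34 (SE 0.132, adjusted p = 0.139), and without that control library 0.46 (adjusted p = 0.049). Without any 1 of the other 3 control libraries it was 0.28 to 0.32 (adjusted p = 0.259 to 0.333). When libraries were scaled by size alone, without TMM, the AXIN2 groups no longer overlapped. A coding gene on the same strand, ENSG00000266076, overlaps the AXIN2 span and had 7 reads over all libraries. Reads that could belong to both genes are not assigned to either, so the AXIN2 level may be too low. How many such reads there were was not computed.

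**Figure D4:**
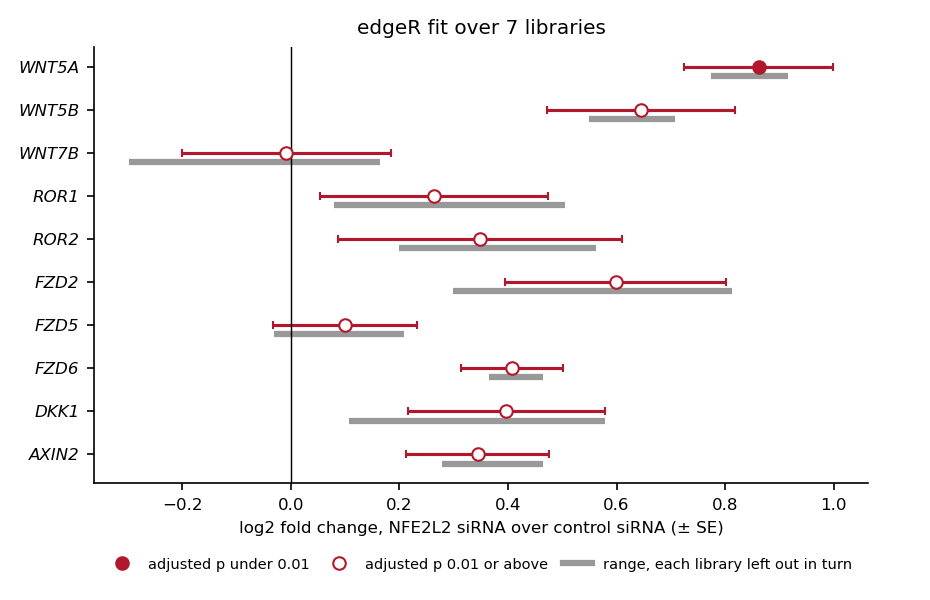
Log2 fold change of NFE2L2 siRNA over control siRNA for the 10 genes (points, with SE as whiskers; filled where the adjusted p is under 0.01) and the range when each of the 7 libraries was left out in turn (grey bars). WNT5A is the filled point at 0.86, WNT7B lies at −0.01, and the grey bars of WNT7B and FZD5 cross 0.

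Apart from differences between groups, several members differed widely among the 3 NFE2L2 duplexes. The highest library was 2.02 times the lowest for ROR1, 2.00 times for FZD2, 1.93 times for DKK1 and 1.81 times for WNT7B, against 1.24, 1.30, 1.07 and 1.30 times among the 4 control siRNA libraries. Of the 7 members with a control mean of at least 10 CPM, these 4 reached 1.5 times among the NFE2L2 duplexes, where 22.5% of 9709 such genes did, and 0 of 7 did among the controls, where 5.09% of genes did. By contrast the ratio was 1.14 for WNT5A, 1.17 for FZD6 and 1.06 for AXIN2. Duplex 2, with the most NFE2L2 left, had the highest level of the 3 for WNT5B, WNT7B, ROR2, FZD2 and AXIN2 and the lowest for WNT5A, ROR1, FZD5, FZD6 and DKK1. The remaining NFE2L2 level and the sequence of the duplex cannot be told apart, since each duplex was used 1 time. The 1.5-fold bound was chosen after the values were seen.

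The control duplexes were compared with each other as a background. Between control duplex 2 and control duplex 1, 0 of the 10 genes passed the edgeR threshold, where 3.29% of 17261 genes did. DESeq2 also gave 0 of 10. The log2 difference of WNT5A between the control duplexes was −0.07 (SE 0.153, adjusted p = 0.795), and that of FZD6 was −0.14 (SE 0.0591, adjusted p = 0.168).

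The mock library lay outside the range of the 4 control siRNA libraries for 7 of the 10 genes, where it did so for 45% of all tested genes. It was above the controls for WNT5A, WNT7B and DKK1 and below them for WNT5B, ROR1, FZD5 and FZD6. With a single library there is no replicate check of these differences. Counting the mock library among the controls left WNT5A, WNT5B and FZD6 without overlap. Against the mock level the mean with NFE2L2 siRNA was 2.29 times as high for WNT5B, 1.60 times for FZD6 and 1.11 times for DKK1.

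The wider WNT pathway was described from lists of 104 genes in 9 groups, of which 103 had an identifier in the counts and 80 were tested. The 23 untested genes had at most 6 reads in any compared library. Of the 80, 6 passed the threshold, all higher, beside the 1.39% of all genes that passed upward, and 0 passed lower. With DESeq2 the counts were 13 higher and 3 lower, where 7.38% of all tested genes passed in either direction. With genes of at least 1 read tested they were 13 higher and 1 lower, where 3.4% of 29942 genes passed. With the mock library added they were 10 higher and 1 lower, where 4.31% of all tested genes passed. Positive log2 fold changes made up 59 of 80 (73.8%), with a median of 0.19, beside 51.3% and 0.01 over all tested genes. Groups did not overlap for 26 genes that were higher and 4 that were lower, that is 32.5% higher beside 11.9% of all tested genes. The lists were chosen with earlier results of these data known, so these shares are descriptions and not a test.

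Machinery of WNT secretion was among the 6. WLS, the carrier that brings lipid-modified WNT proteins to the cell surface, was counted at 1116, 1138 and 1318 reads after NFE2L2 silencing, where the controls ranged from 642 to 658. Its groups were far apart and each was tight, with a log2 fold change of 0.79 (SE 0.0903, adjusted p = 0.000951), and the mock library had 849 reads. The WLS call was lost against control duplex 1 alone (adjusted p = 0.029) and control duplex 2 alone (0.0415). With the control libraries summed per duplex it was lost as well (0.0519). PORCN, the enzyme that attaches the lipid, was at 6.96 ± 1.03 CPM (SD, n = 3) against 6.88 ± 0.609 CPM (SD, n = 4), with a log2 fold change of 0.02 (adjusted p = 0.958).

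In the planar cell polarity list, the branch through which WNT5 ligands orient cells, 3 of 17 tested genes passed, all higher. They were PRICKLE1 and PRICKLE2, cytoplasmic polarity proteins, and DAAM1, a formin that links Dishevelled to the actin cytoskeleton. PRICKLE1 reached 176, 292 and 228 reads after silencing, where the controls ranged from 69 to 89 (log2 fold change 1.46, SE 0.176, adjusted p = 0.00122). PRICKLE2 was at 60.5 ± 9.46 CPM (SD, n = 3) against 37.2 ± 2.28 CPM (SD, n = 4), or 0.70 on the log2 scale (adjusted p = 0.00741). DAAM1 was at 20.1 ± 4.50 against 10.5 ± 0.683 CPM, or 0.93 on the log2 scale (adjusted p = 0.00555). Of the 17 genes 15 had a positive log2 fold change, with a median of 0.14, and 7 were higher without overlap. Over all tested genes 1.39% passed upward, 51.3% were positive with a median of 0.01, and 11.9% were higher without overlap. When single libraries were dropped PRICKLE1 stayed past the threshold, whereas the adjusted p-values of PRICKLE2 and DAAM1 reached 0.0365 and 0.0246. Against either control duplex alone, or with the control libraries summed per duplex, all 3 calls were lost. The adjusted p of PRICKLE1 was then 0.0281 (duplex 1), 0.0448 (duplex 2) and 0.035 (summed).

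SFRP5, a secreted decoy that binds WNT ligands, was counted at 133, 100 and 94 reads after silencing, where the controls ranged from 32 to 48 (log2 fold change 1.45, SE 0.230, adjusted p = 0.00553). The mock library, with 76 reads, lay above the controls. The call of SFRP5 was lost in 8 of 18 alternatives, among them the addition of the mock library (adjusted p = 0.0155) and the omission of any 1 control library (0.014 to 0.0234). The ligand WNT9B had 17, 23 and 45 reads against 3, 2, 8 and 4, a log2 fold change of 2.59 (SE 0.461, adjusted p = 0.00908), and reached the minimum of 10 reads only through the NFE2L2 siRNA libraries, so that it had to differ to be tested. The call was lost in 9 of 18 alternatives, limma-voom among them (adjusted p = 0.011), and with single libraries omitted its adjusted p reached 0.0382. SFRP5 and WNT9B were each the 1 gene to pass in their lists, of 7 and 8 tested. The other lists held 0 genes past the threshold: the other Frizzled receptors and co-receptors (10 tested), receptor turnover (7), beta-catenin turnover (13), TCF/LEF factors and cofactors (9) and beta-catenin feedback and target genes (7). Their median log2 fold changes were 0.01, 0.25, 0.09, 0.34 and 0.33. In the last of these lists 2 genes were higher and 2 lower without overlap between the groups. Over all tested genes 11.9% were higher and 11.4% lower without overlap. The lower ones of the list, named after their values were seen, were CCND1 and MYC (log2 fold changes −0.79 and −0.39, adjusted p = 0.0574 and 0.0241). CCND1 also differed between the control duplexes, by −0.56 for duplex 2 over duplex 1 (edgeR adjusted p = 0.000691), and MYC by 0.03 (0.82).

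**Figure D5:**
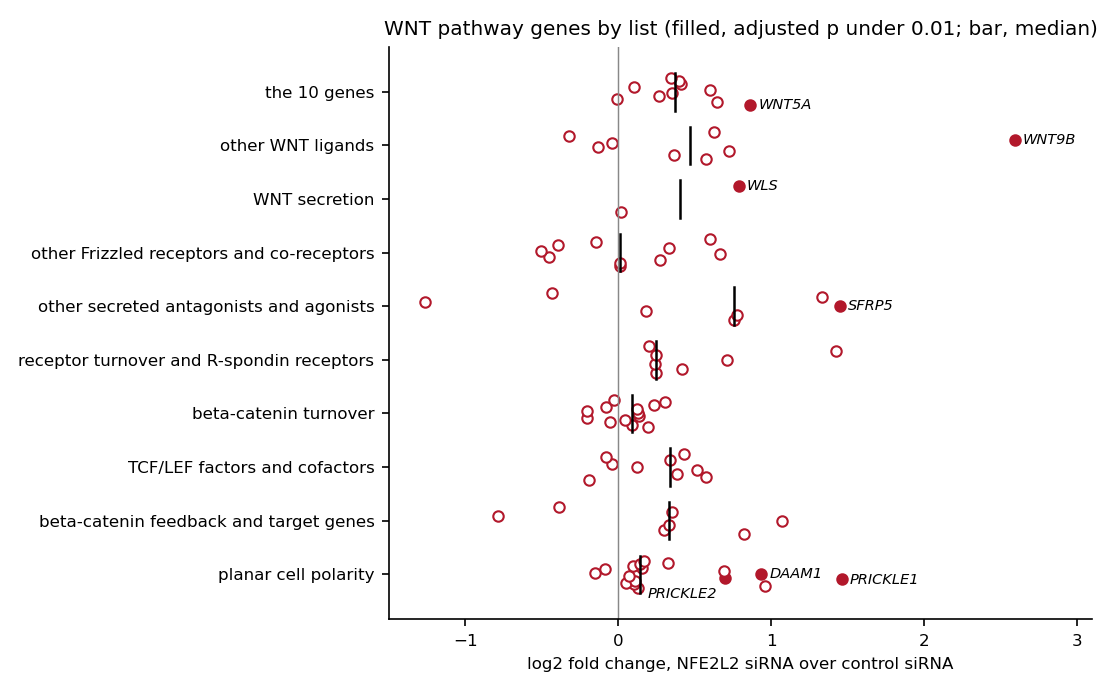
Log2 fold change of NFE2L2 siRNA over control siRNA (horizontal axis) for each tested gene (points) of the 10 genes and of 9 lists of WNT pathway genes (rows), with list medians as bars. Filled and named points passed an adjusted p of 0.01, and all of them, WNT5A, WNT9B, WLS, SFRP5, PRICKLE1, PRICKLE2 and DAAM1, lie to the right of 0.

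The genes next to the WNT5 ligands were read in the same fit. WNT5B lies beside the lncRNA LINC00942 (chromosome 12 from 1609691 to 1616484, minus strand in the annotation used here). The paper quantified it with a RefSeq model because its strand is wrong in GENCODE v19. The counts here are those under its GENCODE identifier, and whether they used that model could not be checked. Under this identifier 2, 6 and 1 reads were counted after silencing, where the controls had 11, 14, 22 and 20 (log2 fold change −2.52, SE 0.530, adjusted p = 0.0194). The sign was opposite to that of WNT5B, and LINC00942 reached the minimum of 10 reads only through the control libraries. It missed the threshold here but passed with DESeq2 (adjusted p = 0.00215), with genes of at least 1 read tested (0.00238) and without NFE2L2 duplex 2 (0.00788). The paper, which used DESeq2, also reported lower LINC00942 by RT-qPCR after NFE2L2 silencing in A549 and H838 cells. It further reported NRF2 binding at the LINC00942 promoter by chromatin immunoprecipitation and a response of that promoter in reporter assays. The coding neighbours ERC1 and ADIPOR2 had log2 fold changes of 0.24 and 0.09 (adjusted p = 0.297 and 0.643). FBXL14, which lies within the WNT5B span on the other strand, had 0.05 (adjusted p = 0.835). Counting was strand-specific, so reads of FBXL14 were not assigned to WNT5B. At the WNT5A locus the antisense transcript WNT5A-AS1 had at most 1 read in any library and ERC2 at most 6, and neither was tested.

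The 3 genes whose log2 CPM followed that of WNT5A most closely over the 8 libraries, among 13777 genes with a mean of at least 1 CPM, were PCSK4 (Pearson r = 0.989), KLHL36 (0.975) and DOP1A (0.972). These are descriptions over libraries that share the same 3 groups, and no p is given.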

How the data were processed

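Strand-specific total RNA sequencing was available for 8 A549 libraries. The authors aligned reads to hg19 (HISAT 0.1.6 in the submitters' processing notes) and deposited raw counts per GENCODE v19 gene made with HTSeq-count 0.6.0, without normalization. Between 60.304% and 65.601% of entries fell on genes, and classes of unassigned reads were left out. Groups came from the labels, which do not say whether repeat transfections were separate cultures, so p-values measure the spread between these samples.

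A gene was tested if any of the 7 compared libraries held 10 or more of its reads, with edgeR 4.0.16 (R 4.3.3; TMM, glmQLFit, glmQLFTest, prior count 0.125, Benjamini-Hochberg adjustment). SE was derived from the fold change and the F statistic. As in the study's methods, the mock library stayed outside the fit. CPM used TMM factors over all 8 libraries, and exon lengths came from GENCODE v44 mapped to GRCh37. PRICKLE4 and PECAM1 were not matched, and 1 listed marker gene is not reported here.

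The members, lists and tests were chosen with earlier results of these data known. Named genes are the members, pathway genes past the threshold, the neighbours of WNT5A and WNT5B, NFE2L2, and the 3 genes most alike to WNT5A (log2 of CPM + 0.5). Other genes are named for their levels or, where stated, after their values were seen. Alternatives were DESeq2 1.42.0, limma-voom (limma 3.58.1), other scalings, filters, thresholds and control groups, and each library left out. Protein sequences were not used here.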

Additional observations from a re-analysis of the deposited data

How the results depend on the processing

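The number of genes past the threshold, 491 with edgeR, was 1314 with DESeq2, 1019 with genes of at least 1 read, 120 against control duplex 1 alone, 59 against control duplex 2 alone, 78 with control libraries summed per duplex, 772 with the mock library added and 1456 at 0.05, and 163 to 915 with each library left out. The 1 member became 2 with DESeq2 and at 0.05, 0 against either control duplex alone or with summed controls, and 0 to 2 with each library left out. The 6 pathway genes became 16 with DESeq2, 14 with at least 1 read, 11 with the mock library, 15 at 0.05, 0 against either control duplex alone or summed controls, and 2 to 7 with each library left out. Fits against 1 control duplex, with summed controls or without a library rest on fewer samples, but without NFE2L2 duplex 2 the counts rose to 915 genes and 2 members, and the cause of these moves was not tested. Directions turned for WNT7B (log2 fold change 0.0247 with library size alone, 0.0187 against control duplex 1, −0.30 to 0.16 with each library left out), FBXL14 (−0.0336 against control duplex 1, −0.0635 to 0.12 left out), FZD5 (−0.0316 to 0.21 left out) and ADIPOR2 (−0.0245 to 0.15 left out), none of which passed in any fit, and the cause was not tested. The other 8 members kept a positive log2 fold change under all 18 alternatives. No paired analysis was possible because the number of an NFE2L2 duplex and the repeat number of a control transfection name different things. Depth limits WNT5B and ROR2, with 22 to 75 reads per compared library.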

Other observations

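The following pathway genes were chosen after their values were seen. At an adjusted p between 0.01 and 0.05 in the edgeR fit lay 9 further genes of the lists, 11.2% of the 80 tested, beside 5.42% of all 17811 genes. RNF43, a ubiquitin ligase that removes Frizzled receptors from the membrane, was at 92.0 ± 2.67 CPM (SD, n = 3) with NFE2L2 siRNA and 56.2 ± 10.8 CPM (SD, n = 4) with control siRNA (log2 fold change 0.71, edgeR adjusted p = 0.0129). The receptor FZD8 was at 73.7 ± 9.09 against 46.4 ± 7.68 CPM (0.67, adjusted p = 0.0186), and the WNT co-receptor PTK7 at 14.6 ± 2.13 against 9.62 ± 0.567 CPM (0.60, adjusted p = 0.018). VANGL2, a core polarity protein, had 0.96 (adjusted p = 0.022), NOTUM, an enzyme that removes the lipid of WNT proteins, 1.33 (0.0248), and the beta-catenin feedback genes NKD1 and TNFRSF19 had 0.82 and 1.07 (0.0347 and 0.0416). The R-spondin RSPO3, which amplifies WNT signals, and the transcription factor MYC were lower, with log2 fold changes of −0.43 and −0.39 (adjusted p = 0.0241 for both). Control duplex 2 differed from control duplex 1 by −0.34 for FZD8, −0.85 for TNFRSF19 and 0.23 for RSPO3 on the log2 scale. The edgeR adjusted p-values were 0.0353, 0.0268 and 0.0413, and the lowest among the other genes named here was 0.179, for RNF43.

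Between the control duplexes 3 of 79 tested pathway genes (3.8%) passed 0.01 with edgeR, a share near the 3.29% of all genes. FZD7 and CCND1 were lower with control duplex 2 than with control duplex 1 (log2 differences −0.59 and −0.56, adjusted p = 0.00397 and 0.000691), and PYGO2 was higher (0.69, adjusted p = 0.000754).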
